A study of Homo sapiens with 8 samples.

Results

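Islet-like cultures that carried an ISL1 vector had more RNA of 10 genes than cultures with a control vector, in several genotypes: NOX4, VSIG1, RIPPLY3, RARRES2, NMNAT3, TCN1, NKAIN3, RASSF9, LYPD6B and LRRC36. They are 10 of the 38592 genes in the deposited table, and all 10 were among the 22184 that passed the filter on low counts. The genes were chosen by these same vector comparisons from among those that rose repeatedly (each passed the test described below in at least 2 of 4 genotypes, as 0.261% of all genes did), so the fold changes between vectors below describe the choice and carry no p-value. The cultures were made from the embryonic stem cell line H1, an established human line, taken through a stepwise islet differentiation. Cells received either a vector encoding ISL1 with blue fluorescent protein (ISL1 OE) or the fluorescent protein alone (BFP) on day 11, and were harvested on day 18. Each of 4 genotypes was given both vectors, which makes 8 groups: ISL1 KO ISL1 OE, ISL1 KO BFP, PAX6 KO ISL1 OE, PAX6 KO BFP, PDX1 KO ISL1 OE, PDX1 KO BFP, WT ISL1 OE and WT BFP. The 21 libraries comprise 3 in each group except WT ISL1 OE, WT BFP and PDX1 KO ISL1 OE, which have 2. Every group, BFP included, was transduced, and all share the H1 background; the sources used here do not give the number of edited clones behind each knockout. RNA came from whole cultures, so more cells of a type that uses a gene and more RNA per cell cannot be told apart.

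ISL1 is a transcription factor of the LIM-homeodomain family that is made in postmitotic endocrine precursors and in all hormone cells of the islet, where it is needed for their maturation. PAX6 and PDX1 are homeodomain factors of the same lineage, PAX6 being best known for hormone gene expression and PDX1 for the pancreatic field and the beta cell. Homeodomain proteins commonly bind DNA around a TAAT core. The 10 genes encode unrelated proteins: enzymes (NOX4, NMNAT3), secreted carriers and signals (RARRES2, TCN1), membrane or membrane-anchored proteins (VSIG1, LYPD6B, NKAIN3) and intracellular proteins (RIPPLY3, RASSF9, LRRC36).

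They lie on 9 different chromosomes. In GENCODE 29 on GRCh38, NOX4 spans chr11:89324356-89498187 and TCN1 chr11:59852800-59866575, both on the minus strand. RARRES2 spans chr7:150338317-150341674, NMNAT3 chr3:139560180-139678017 and RASSF9 chr12:85800697-85836570, also on the minus strand. VSIG1 spans chrX:108044970-108079184, RIPPLY3 chr21:37006150-37019659, LYPD6B chr2:149038107-149215262 and LRRC36 chr16:67326798-67385203, on the plus strand; all 10 genes are annotated as protein coding.

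Promoter windows, the 250 bases before a RefSeq transcript start (GRCh38.p14), were found for 6 of the 10 genes: NOX4, RARRES2, NMNAT3, TCN1, RASSF9 and LYPD6B. The 5 windows printed here belong to NOX4, RARRES2, NMNAT3 and TCN1, whose levels the results below turn on most often, so that the sequence before the start can be read beside them. Capitals mark TAAT on either strand, written ATTA where the core is on the opposite one; overlapping copies were counted separately. Transcripts starting within 200 bases of the first NOX4 window's start carried 48.1% of the NOX4 transcript counts, and 35.4% belonged to the second. The share was 100% for RARRES2, 98.2% for NMNAT3 and 99.4% for TCN1.
NOX4, chr11:89491376-89491625, minus strand: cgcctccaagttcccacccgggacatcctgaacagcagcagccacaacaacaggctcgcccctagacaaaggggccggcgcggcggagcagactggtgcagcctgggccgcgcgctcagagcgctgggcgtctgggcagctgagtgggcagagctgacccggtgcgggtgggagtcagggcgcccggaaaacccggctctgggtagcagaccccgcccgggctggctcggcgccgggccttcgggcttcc
NOX4, chr11:89490761-89491010, minus strand: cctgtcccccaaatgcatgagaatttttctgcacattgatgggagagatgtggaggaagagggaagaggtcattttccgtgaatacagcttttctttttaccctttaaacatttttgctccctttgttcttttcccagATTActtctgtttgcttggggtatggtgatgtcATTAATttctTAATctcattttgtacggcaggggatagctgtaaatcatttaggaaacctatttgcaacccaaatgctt
RARRES2, chr7:150341630-150341879, minus strand: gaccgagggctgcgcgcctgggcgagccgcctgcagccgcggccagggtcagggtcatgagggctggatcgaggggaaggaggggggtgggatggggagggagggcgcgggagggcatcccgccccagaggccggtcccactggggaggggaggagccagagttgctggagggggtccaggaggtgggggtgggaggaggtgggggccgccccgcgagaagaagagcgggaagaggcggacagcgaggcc
NMNAT3, chr3:139677973-139678222, minus strand: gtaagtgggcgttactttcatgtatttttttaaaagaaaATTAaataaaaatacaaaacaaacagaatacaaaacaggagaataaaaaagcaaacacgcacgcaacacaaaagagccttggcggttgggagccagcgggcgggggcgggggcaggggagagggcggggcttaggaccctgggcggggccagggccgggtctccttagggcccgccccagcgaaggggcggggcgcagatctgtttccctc
TCN1, chr11:59866488-59866737, minus strand: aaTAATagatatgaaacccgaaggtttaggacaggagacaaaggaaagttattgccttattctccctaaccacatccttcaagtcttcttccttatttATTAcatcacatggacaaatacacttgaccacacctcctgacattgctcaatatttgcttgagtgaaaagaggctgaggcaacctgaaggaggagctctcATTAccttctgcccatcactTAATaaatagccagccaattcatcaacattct
The windows differ in composition. The RARRES2 window is 74.8% G and C and the first NOX4 window 72.0%, and neither holds a TAAT. The TCN1 window is 40.0% G and C with 4 TAAT cores, the second NOX4 window 39.6% with 4, and the NMNAT3 window 54.8% with 1. Of 35116 RefSeq promoter windows of this length, 47.4% hold at least 1 TAAT, so the core is common. Other windows of these genes differ again. A second NMNAT3 window, chr3:139678051-139678300, overlaps the printed one and carries 98.1% of the counts by the same measure, and it is 41.6% G and C with 4 TAAT cores. A further NOX4 window, chr11:89492220-89492469, carries 5.54% and is 26.4% G and C with 5. The longer strings CTAATG and TAATTA, found in 5.57% and 4.35% of all windows, each occur once in that further NOX4 window and in none of the 5 printed, and these letters say nothing about binding.

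The libraries held 40959445 to 66818593 estimated gene counts, with 24721 to 27304 genes detected. Of the 21 libraries, 2 stand apart from their group in log2 expression: PAX6 KO ISL1 OE replicate 3, with Pearson correlations of 0.927 and 0.936 to the other two, where other pairs within a group have 0.982 to 0.988, and PDX1 KO ISL1 OE replicate 4, with 0.900 to its only partner. Values without them are given for the 10 genes, for the lists and for the genes named beside them where a call or a value depends on them. Replicate 4 of PDX1 KO ISL1 OE also differs in hormone RNA, given as CPM (counts relative to library size, scaled by TMM factors). INS, the insulin gene, had 44875 CPM in replicate 4, against 324 CPM in its partner and 371, 314 and 173 CPM in PDX1 KO BFP. In WT BFP it had 13286 and 10443 CPM. GCG, the glucagon gene, had 94730 CPM in replicate 4, against 10836 CPM in the partner. Whether this library matches its label was not tested. ISL1 RNA fell in ISL1 KO BFP cultures relative to WT BFP, by 2.51 ± 0.38 (SE) on the log2 scale (edgeR adjusted p = 0.000831). PAX6 RNA in PAX6 KO BFP and PDX1 RNA in PDX1 KO BFP did not differ detectably from WT BFP (log2 fold changes of -0.52 ± 0.43, adjusted p = 0.569, and 0.25 ± 0.23, adjusted p = 0.572). The sources used here do not give the edits' positions, so RNA does not check those labels.

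ISL1 RNA does not check the vector label either. ISL1 stood at 61.6, 73.1 and 84.0 CPM in ISL1 KO ISL1 OE, against 64.7, 66.0 and 72.0 CPM in ISL1 KO BFP. It stood at 326 and 313 CPM in WT ISL1 OE, against 285 and 484 CPM in WT BFP. In PAX6 KO it had 150.9, 115.7 and 316.8 CPM with the ISL1 vector, against 191, 123 and 213 CPM with BFP, and in PDX1 KO 127 and 278 CPM, against 140, 157 and 123 CPM. The groups overlap in all 4 genotypes, and no comparison passed the test (log2 fold changes of 0.11 ± 0.34, 0.15 ± 0.34, 0.54 ± 0.38 and -0.27 ± 0.42 in ISL1 KO, PAX6 KO, PDX1 KO and WT; adjusted p = 1.0, 0.867, 0.341 and 1.0). The sources used here do not say whether RNA from the vector would be counted as ISL1. The 10 genes' mean log2 profile had a Pearson correlation of 0.281 with ISL1 over the 21 libraries.

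**Figure D1:**
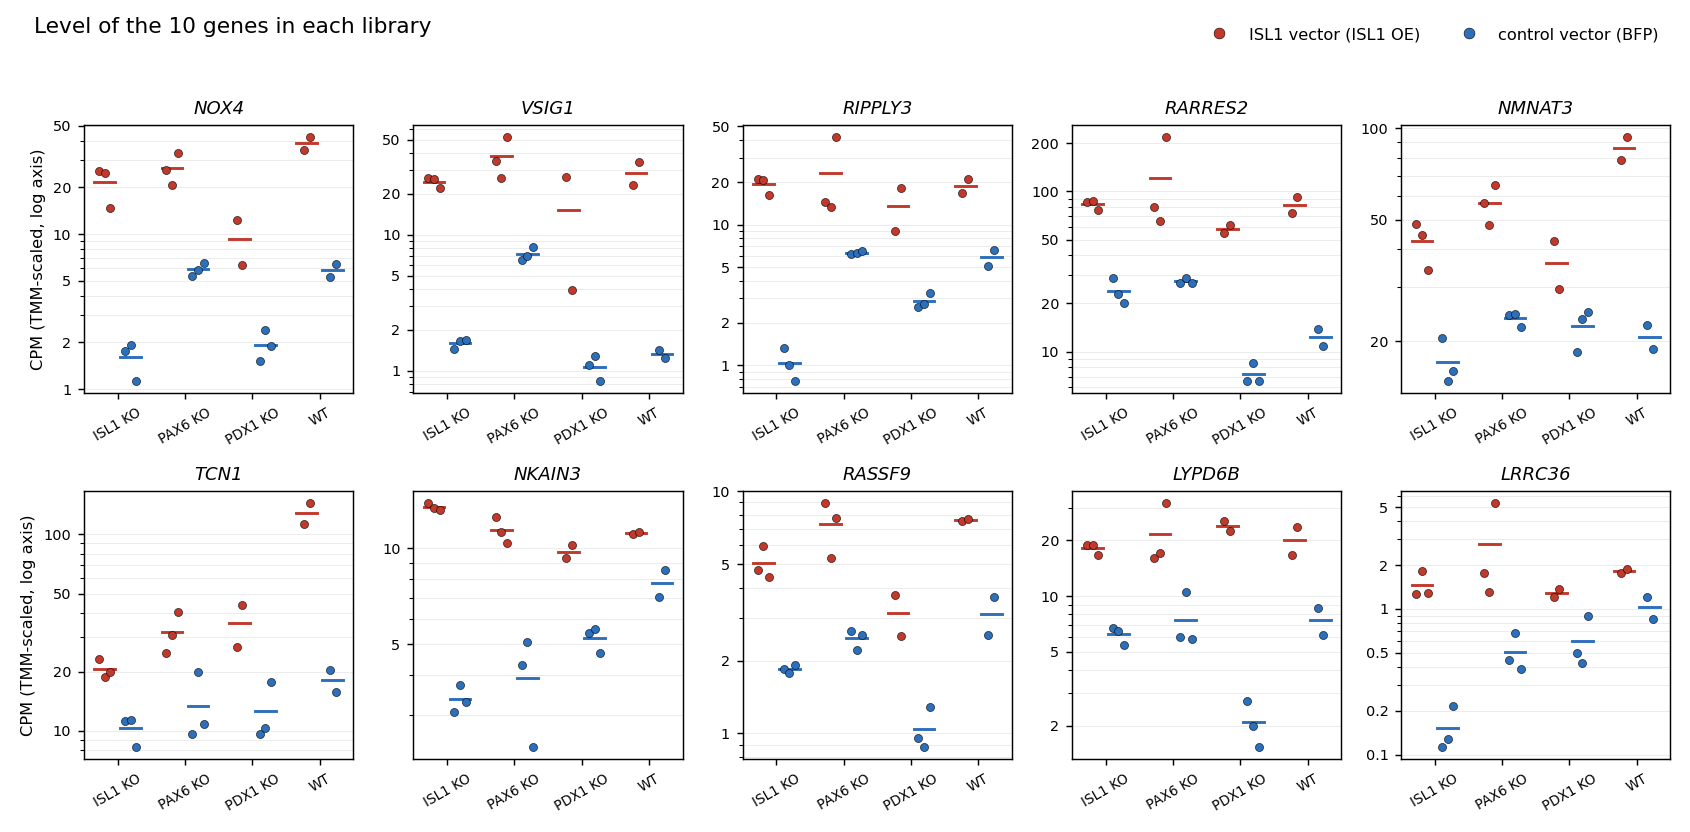
Level of each of the 10 genes in every library, in CPM on a log axis, with red points for ISL1 OE and blue points for BFP libraries in each genotype and a line at the group mean. Red points lie above the blue points of the same genotype in every panel, with the PDX1 KO pair closest for VSIG1 (3.89 CPM against 1.27 CPM) and NMNAT3 (29.6 CPM against 25 CPM).

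With the ISL1 vector, all 10 genes were higher than with BFP in all 4 genotypes, and no ISL1 OE library overlapped a BFP library of its genotype in CPM. Of all genes tested, 0.933% (207 genes) meet that description. A gene is called where edgeR's quasi-likelihood test gave an adjusted p under 0.05. By that rule 9 of the 10 were called higher in ISL1 KO (background 0.243% of genes), 9 in PAX6 KO (0.203%), 9 in PDX1 KO (9.09%) and 5 in WT (0.0361%, or 8 genes in all). These comparisons chose the list, so nothing is read from the counts. NOX4, VSIG1, RARRES2 and NMNAT3 were called in 4 of 4 genotypes and are the only 4 genes of the table that were (0.0180%). RIPPLY3, NKAIN3, RASSF9 and LYPD6B were called in 3 (at least 3 in 0.0766% of genes), and TCN1 and LRRC36 in 2. The median fitted log2 fold change of the 10 was 1.90 for ISL1 KO, 1.72 for PAX6 KO, 1.92 for PDX1 KO and 1.88 for WT, beside -0.01, 0.05, 0.07 and -0.02 over all genes tested.

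The counts of calls depend on single libraries. Calls over all genes do so too, with 45 higher in PAX6 KO and 18 without ISL1 OE replicate 3. Beside the other counts of the 10 in alternative fits, here or below, no share over all genes is given. Nothing about the 10 is therefore read from those counts. In PAX6 KO, same-numbered libraries deviated together, and with the replicate number as a block 5 of the 10 were called in place of 9. In the same genotype 5 were called without ISL1 OE replicate 3, and 2 without BFP replicate 1 or without BFP replicate 3. In ISL1 KO 5 were called without any 1 of the 3 BFP libraries, and in WT 0 were called without ISL1 OE replicate 2, BFP replicate 1 or BFP replicate 3. In PDX1 KO 7 were called without ISL1 OE replicate 4, which leaves 1 ISL1 OE library that is assumed to vary like the others. Without PAX6 KO ISL1 OE replicate 3 the fitted log2 fold changes in PAX6 KO were 1.97 for NOX4, 2.08 for VSIG1, 1.13 for RIPPLY3, 1.40 for RARRES2, 1.14 for NMNAT3, 1.05 for TCN1, 1.59 for NKAIN3, 1.52 for RASSF9, 1.15 for LYPD6B and 1.6 for LRRC36, so those of RIPPLY3, RARRES2 and LRRC36 moved most. Without PDX1 KO ISL1 OE replicate 4 those in PDX1 KO were 2.71 for NOX4, 4.66 for VSIG1, 1.68 for RIPPLY3, 2.96 for RARRES2, 0.96 for NMNAT3, 1.12 for TCN1, 0.86 for NKAIN3, 1.88 for RASSF9, 3.64 for LYPD6B and 1.03 for LRRC36. All stay above 0 in both genotypes. Scale also matters in PDX1 KO: on library totals alone NMNAT3 overlapped, and in the deposited TPM values NMNAT3, TCN1, RASSF9 and LRRC36 did, each through replicate 4. LRRC36 overlapped in WT on TPM too.

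**Figure D2:**
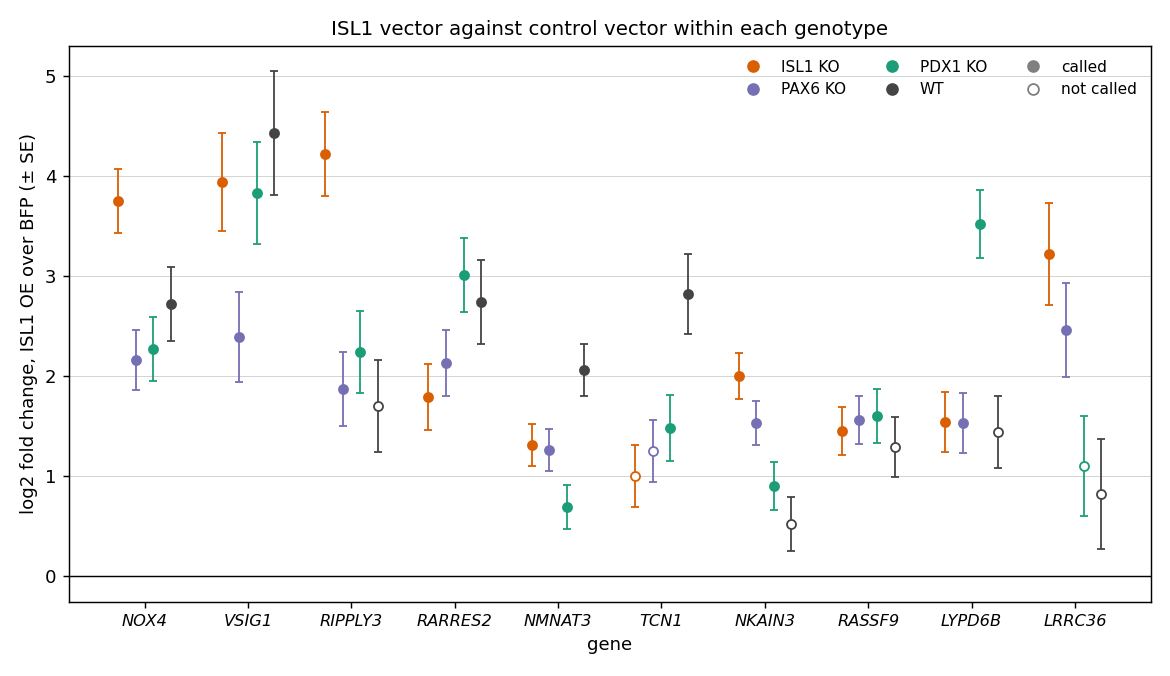
Fitted log2 fold change of each gene, ISL1 OE over BFP, with its SE, in ISL1 KO, PAX6 KO, PDX1 KO and WT; filled points were called. All 40 points lie above 0, from 0.52 for NKAIN3 in WT to 4.43 for VSIG1 in WT, and the genes differ in which genotype lies highest.

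NOX4 and NMNAT3 encode enzymes. NOX4, an NADPH oxidase that releases hydrogen peroxide, had 25.4, 24.8 and 14.7 CPM in ISL1 KO ISL1 OE, against 1.76, 1.93 and 1.13 CPM in ISL1 KO BFP. It had 25.9, 20.7 and 33.2 CPM in PAX6 KO ISL1 OE, against 5.40, 5.87 and 6.53 CPM in PAX6 KO BFP, and 12.4 and 6.27 CPM in PDX1 KO ISL1 OE, against 1.52, 2.39 and 1.90 CPM in PDX1 KO BFP. In WT it had 35.0 and 42.0 CPM with ISL1 OE, against 5.26 and 6.4 CPM with BFP. The vectors are far apart within each genotype, while PDX1 KO ISL1 OE replicate 4 lies within the range of the WT and PAX6 KO control libraries. On the log2 scale the fitted fold changes were 3.75 ± 0.32, 2.16 ± 0.30, 2.27 ± 0.32 and 2.72 ± 0.37 (SE) in ISL1 KO, PAX6 KO, PDX1 KO and WT.

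NMNAT3, which makes NAD from nicotinamide mononucleotide and is known from mitochondria, changed least in PDX1 KO. It had 48.6, 44.7 and 34.2 CPM in ISL1 KO ISL1 OE, against 20.5, 14.8 and 16 CPM in ISL1 KO BFP, and 56.8, 48.1 and 65.2 CPM in PAX6 KO ISL1 OE, against 24.4, 24.5 and 22.3 CPM in PAX6 KO BFP. PDX1 KO had 42.6 and 29.6 CPM with ISL1 OE, against 18.4, 23.7 and 25 CPM with BFP, and WT had 78.7 and 93.4 CPM, against 22.5 and 18.8 CPM. The BFP libraries lie between 14.8 and 25 CPM, and every ISL1 OE library of any genotype lies above them. The fitted log2 fold changes were 1.31 ± 0.21, 1.26 ± 0.21, 0.69 ± 0.22 and 2.06 ± 0.26 in ISL1 KO, PAX6 KO, PDX1 KO and WT. The library kit does not mark strand, and AC097103.2 runs antisense to NMNAT3 on the plus strand, so reads of the pair cannot be fully told apart. AC097103.2 was at 16 to 19.2 CPM in ISL1 KO ISL1 OE and 14.7 to 18.4 CPM in ISL1 KO BFP, and at 21.9 and 27.9 CPM in WT ISL1 OE and 25.8 and 28.4 CPM in WT BFP. In PAX6 KO it had 19.3, 19.5 and 22.4 CPM with ISL1 OE, against 13.7, 16.4 and 16.5 CPM with BFP, which do not overlap but did not pass (0.39 ± 0.26, edgeR adjusted p = 0.559). In PDX1 KO it rose, with 19.1 and 52.6 CPM with ISL1 OE, against 12.8, 13.1 and 14.2 CPM with BFP (log2 fold change 1.42 ± 0.28, edgeR adjusted p = 0.00454). The higher of the pair is replicate 4, and without it the value was 0.55 ± 0.20 and did not pass (adjusted p = 0.193).

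RARRES2 and TCN1 encode secreted proteins. RARRES2, the precursor of chemerin, a chemoattractant and adipokine, had 86.4, 87.4 and 76.3 CPM in ISL1 KO ISL1 OE, against 29, 23 and 20.2 CPM in ISL1 KO BFP. In PAX6 KO it had 79.5, 65.3 and 217 CPM with ISL1 OE, against 27.0, 28.7 and 26.8 CPM with BFP, and in PDX1 KO 55.2 and 62.0 CPM, against 6.59, 8.56 and 6.60 CPM. WT had 73.4 and 91.7 CPM, against 13.8 and 10.8 CPM. The ISL1 OE libraries lie between 55.2 and 91.7 CPM except for PAX6 KO replicate 3, and the PDX1 KO control libraries are the lowest. On the log2 scale the fitted fold changes were 1.79 ± 0.33, 2.13 ± 0.33, 3.01 ± 0.37 and 2.74 ± 0.42 in ISL1 KO, PAX6 KO, PDX1 KO and WT. Per length RARRES2 was the most abundant of the 10 in every ISL1 OE group, with a mean of 126.5 ± 69.0 (SD, n = 2) TPM in PDX1 KO at the low end and 305 ± 91.1 (SD, n = 3) TPM in PAX6 KO at the high end.

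TCN1, or transcobalamin 1, a secreted carrier of vitamin B12, reached its highest level in WT. It had 112.5 and 143.9 CPM in WT ISL1 OE, against 20.5 and 15.8 CPM in WT BFP. In ISL1 KO it had 23.2, 18.8 and 19.9 CPM with ISL1 OE, against 11.3, 11.4 and 8.31 CPM with BFP. In PAX6 KO it had 25, 30.7 and 40.5 CPM, against 9.61, 19.9 and 10.8 CPM, and in PDX1 KO 26.8 and 43.7 CPM, against 9.63, 10.4 and 17.8 CPM. The ISL1 OE libraries of ISL1 KO overlap those of WT BFP. The fitted log2 fold changes were 1.0 ± 0.31, 1.25 ± 0.31, 1.48 ± 0.33 and 2.82 ± 0.40 in ISL1 KO, PAX6 KO, PDX1 KO and WT.

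VSIG1, LYPD6B and NKAIN3 encode proteins of the cell surface. VSIG1, a junctional protein of the immunoglobulin superfamily known from stomach epithelium, had 26.0, 25.7 and 21.9 CPM in ISL1 KO ISL1 OE, against 1.44, 1.64 and 1.69 CPM in ISL1 KO BFP. WT had 23.1 and 34.0 CPM with ISL1 OE, against 1.41 and 1.24 CPM with BFP. PAX6 KO had 35.0, 26.0 and 52.0 CPM, against 6.51, 6.95 and 8.09 CPM. In PDX1 KO the pair of ISL1 OE libraries had 26.7 and 3.89 CPM, against 1.10, 1.27 and 0.840 CPM with BFP. Replicate 2 of PDX1 KO ISL1 OE sits with the other genotypes and replicate 4 lies below the PAX6 KO control libraries. On the log2 scale the fitted fold changes were 3.94 ± 0.49, 2.39 ± 0.45, 3.83 ± 0.51 and 4.43 ± 0.62 in ISL1 KO, PAX6 KO, PDX1 KO and WT, and the PDX1 KO value ran from 1.93 to 4.66 when 1 library was left out.

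LYPD6B, a lipid-anchored protein of the LY6/PLAUR family that acts on nicotinic acetylcholine receptors, differed most in PDX1 KO. There it had 25.6 and 22.4 CPM with ISL1 OE, against 2.73, 2.0 and 1.54 CPM with BFP. In ISL1 KO it had 18.9, 19 and 16.6 CPM, against 6.74, 6.53 and 5.44 CPM, in PAX6 KO 16, 17.2 and 31.7 CPM, against 6.05, 10.5 and 5.89 CPM, and in WT 16.6 and 23.7 CPM, against 8.62 and 6.21 CPM. The PDX1 KO control libraries are the lowest of all 11 BFP libraries, while the ISL1 OE levels of PDX1 KO lie within the range of those of PAX6 KO. The fitted log2 fold changes were 1.54 ± 0.30, 1.53 ± 0.30, 3.52 ± 0.34 and 1.44 ± 0.36 in ISL1 KO, PAX6 KO, PDX1 KO and WT.

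NKAIN3, of a membrane protein family that binds the beta subunit of the Na,K-ATPase, had ISL1 OE levels within 9.30 to 13.8 CPM, the smallest ratio of highest to lowest among the 10. It had 13.8, 13.3 and 13.2 CPM in ISL1 KO ISL1 OE, against 3.06, 3.74 and 3.29 CPM in ISL1 KO BFP, and 12.5, 11.2 and 10.4 CPM in PAX6 KO ISL1 OE, against 4.30, 5.09 and 2.39 CPM in PAX6 KO BFP. PDX1 KO had 9.30 and 10.2 CPM, against 5.43, 5.57 and 4.70 CPM, and WT had 11.1 and 11.2 CPM, against 7.05 and 8.52 CPM. WT BFP is the highest control group, and its fold change the smallest. On the log2 scale the fitted fold changes were 2.0 ± 0.23, 1.53 ± 0.22, 0.90 ± 0.24 and 0.52 ± 0.27 in ISL1 KO, PAX6 KO, PDX1 KO and WT.

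The other 3 encode proteins that act inside the cell. RIPPLY3, a co-repressor of T-box transcription factors, had 21.1, 20.8 and 16.2 CPM in ISL1 KO ISL1 OE, against 1.33, 1.01 and 0.775 CPM in ISL1 KO BFP. In PAX6 KO it had 14.4, 13.3 and 41.8 CPM, against 6.16, 6.26 and 6.51 CPM, in PDX1 KO 8.98 and 18.1 CPM, against 2.59, 2.74 and 3.28 CPM, and in WT 16.8 and 21.2 CPM, against 5.12 and 6.59 CPM. The ISL1 OE groups overlap one another, and the ISL1 KO control group is lowest. The fitted log2 fold changes were 4.22 ± 0.42, 1.87 ± 0.37, 2.24 ± 0.41 and 1.70 ± 0.46 in ISL1 KO, PAX6 KO, PDX1 KO and WT.

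RASSF9, a Ras-association domain protein found in rat as a partner of the peptide-amidating enzyme PAM on recycling endosomes, ranged from 2.53 to 8.92 CPM in ISL1 OE libraries and from 0.881 to 3.65 CPM in BFP libraries. Its 4 fold changes were the most even of the 10, at 1.45 ± 0.24, 1.56 ± 0.24, 1.6 ± 0.27 and 1.29 ± 0.30 in ISL1 KO, PAX6 KO, PDX1 KO and WT. LRRC36, a leucine-rich repeat protein, had the fewest reads, with 1.21 to 5.31 CPM in ISL1 OE libraries and 0.113 to 1.21 CPM in BFP libraries. In ISL1 KO it had 1.26, 1.81 and 1.28 CPM with ISL1 OE, against 0.113, 0.128 and 0.215 CPM with BFP, a log2 fold change of 3.22 ± 0.51. PAX6 KO replicate 3 holds its highest value, 5.31 CPM, beside 1.76 and 1.31 CPM in the other two. Its log2 fold changes were 2.46 ± 0.47 in PAX6 KO, 1.10 ± 0.50 in PDX1 KO and 0.82 ± 0.55 in WT.

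For RIPPLY3, RARRES2, NMNAT3, NKAIN3 and LYPD6B every ISL1 OE library, of whatever genotype, lay above every BFP library, which 0.162% of genes do. In the other 5 the highest BFP library overlapped the lowest ISL1 OE library across genotypes. Across the 21 libraries the 45 pairs among the 10 had Pearson correlations of log2 CPM from 0.616 to 0.931, with a median of 0.805. Once each group's mean was removed, the same pairs ran from -0.302 to 0.825, with a median of 0.283, so most of the shared pattern lies between groups. The libraries of a pair share depth and scaling, and the genes were chosen for this pattern.

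For several genes 1 transcript held most of the counts under both vectors. RARRES2-201 carried 87.4% ± 2.47 (SD, n = 10) of RARRES2 transcript counts in ISL1 OE libraries and 86.3% ± 2.57 (SD, n = 11) in BFP libraries. TCN1-201 carried 98.8% ± 0.792 and 97.7% ± 2.07, and RIPPLY3-201 97.9% ± 2.05 and 94.8% ± 6.75. For NOX4 the leading transcript carried 36.0% ± 3.29 in ISL1 OE and 29.7% ± 10.5 in BFP libraries. No transcript share was tested. For NKAIN3 the matched transcripts held 22.3% of the gene's counts, too few to give shares.

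Other genes moved with the same vector, among them markers of other cell types. HHEX, a homeodomain factor that defines the delta cell, rose in ISL1 KO, with 32.2, 31.8 and 24 CPM with ISL1 OE, against 5.19, 5.62 and 3.26 CPM with BFP (log2 fold change 2.64 ± 0.29, edgeR adjusted p = 0.000406). It rose in PAX6 KO by 2.13 ± 0.29 (adjusted p = 0.00342) and in PDX1 KO by 2.62 ± 0.31 (adjusted p = 0.000119), and the WT difference of 1.81 ± 0.35 did not pass (adjusted p = 0.107). HHEX was also lower in ISL1 KO BFP than in WT BFP, by a log2 fold change of -2.42 ± 0.31 (adjusted p = 0.000190). SST, the hormone of delta cells, had 3.95, 5.45 and 10.8 CPM in ISL1 KO ISL1 OE, against 0.356, 0.546 and 0.516 CPM in ISL1 KO BFP, which did not pass (3.82 ± 0.87, adjusted p = 0.0741). In PAX6 KO SST did not pass (1.39 ± 0.75, edgeR adjusted p = 0.516) and was at -0.55 without ISL1 OE replicate 3. It passed in PDX1 KO (3.51 ± 0.85, edgeR adjusted p = 0.0134), with 107 and 312 CPM with ISL1 OE, the higher being replicate 4. Without replicate 4 the fold change was 2.57 on 1 ISL1 OE library, so no call is read from it. The WT difference of 0.37 ± 0.90 did not pass. Of 7 delta cell markers tested, 2 rose in ISL1 KO (0.243% of all genes did), 2 in PAX6 KO (0.203%), 4 in PDX1 KO (9.09%) and 0 in WT (0.0361%), and none fell. Without the libraries that stand apart, 1 rose in PAX6 KO, where 0.0816% of all genes did, and 2 of 8 tested rose in PDX1 KO, where 2.51% did. The summed level of all 8 markers was 288 to 341 CPM in ISL1 KO ISL1 OE and 56.2 to 85.3 CPM in ISL1 KO BFP, 360 to 1018 and 178 to 210 CPM in PAX6 KO, 484 to 1383 and 51.2 to 89.2 CPM in PDX1 KO, and 664 to 765 and 458 to 538 CPM in WT. Single genes weigh heavily in some of these sums. FRZB, 1 of the 8, had 178, 193 and 156 CPM in ISL1 KO ISL1 OE, against 22.8, 26.4 and 18.7 CPM in ISL1 KO BFP. In WT it had 138 and 199 CPM with ISL1 OE, against 86.5 and 33.2 CPM with BFP. No delta cell marker was at 0 in every library of a group.

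As many alpha as delta cell markers rose in ISL1 KO, but from a longer list: 2 of 13, beside the same 0.243% of all genes. The median log2 fold change there was -0.12 for the alpha list and 1.86 for the delta list. GCG, the glucagon gene that defines alpha cells, had 2058, 2527 and 5063 CPM in ISL1 KO ISL1 OE, against 86.5, 72.4 and 82.4 CPM in ISL1 KO BFP (log2 fold change 5.32 ± 0.97, edgeR adjusted p = 0.0180), and GPR119, a lipid receptor, rose by 1.91 ± 0.25 (adjusted p = 0.00163). In PAX6 KO and WT no alpha cell marker was called, and in PDX1 KO 4 rose and 1 fell, or none without replicate 4. The sum of the 13 was 4363 to 7936 CPM in ISL1 KO ISL1 OE and 3729 to 4389 CPM in ISL1 KO BFP, which overlap, and it overlapped in PAX6 KO and PDX1 KO too; in WT it was lower with ISL1 OE, at 35265 to 38512 CPM, against 41681 to 56273 CPM with BFP.

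Among 9 markers of enterochromaffin-like cells, 2 fell with the vector in ISL1 KO (0.180% of all genes did), 2 in PAX6 KO (0.212%), 6 in PDX1 KO (5.34%) and 0 in WT (0%), DDC being one in the 3 knockouts. Without the libraries that stand apart, 3 fell in PAX6 KO and 3 in PDX1 KO, where 0.204% and 0.591% of all genes did. Their sum was 13021 to 19291 CPM in ISL1 KO ISL1 OE and 23847 to 33170 CPM in ISL1 KO BFP, and 20450 to 22812 CPM in PDX1 KO ISL1 OE and 42517 to 46119 CPM in PDX1 KO BFP. In WT it was 14094 to 16804 CPM with ISL1 OE and 18446 to 22402 CPM with BFP, while in PAX6 KO the vectors overlap, at 9756 to 22852 CPM with ISL1 OE and 15066 to 25112 CPM with BFP. PRDM14, a transcription regulator from the pluripotency list, had 74.5, 64.9 and 52.8 CPM in ISL1 KO ISL1 OE, against 2.49, 3.21 and 2.12 CPM in ISL1 KO BFP (4.62 ± 0.64, adjusted p = 0.00314), while POU5F1, which defines pluripotent cells, averaged 0.232 CPM and 0.116 CPM in those groups. Of 7 pluripotency markers tested, 2 rose in ISL1 KO and 2 in PDX1 KO, beside 0.243% and 9.09% of all genes. None was called in PAX6 KO or WT, and none fell. The sum of all 8 was 146 to 153 CPM in ISL1 KO ISL1 OE and 42.4 to 47.6 CPM in ISL1 KO BFP. It was also higher with ISL1 OE in PAX6 KO and WT, and it overlapped in PDX1 KO. In PDX1 KO many lists moved, with 8 of 12 liver markers and 8 of 14 stomach and intestine markers higher with ISL1 OE, beside 9.09% of all genes. Without replicate 4, 1 of 12 liver markers and 5 of 15 stomach and intestine markers were higher, beside 2.51%. The part of any cell type in the levels of the 10 genes was not tested.

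**Figure D3:**
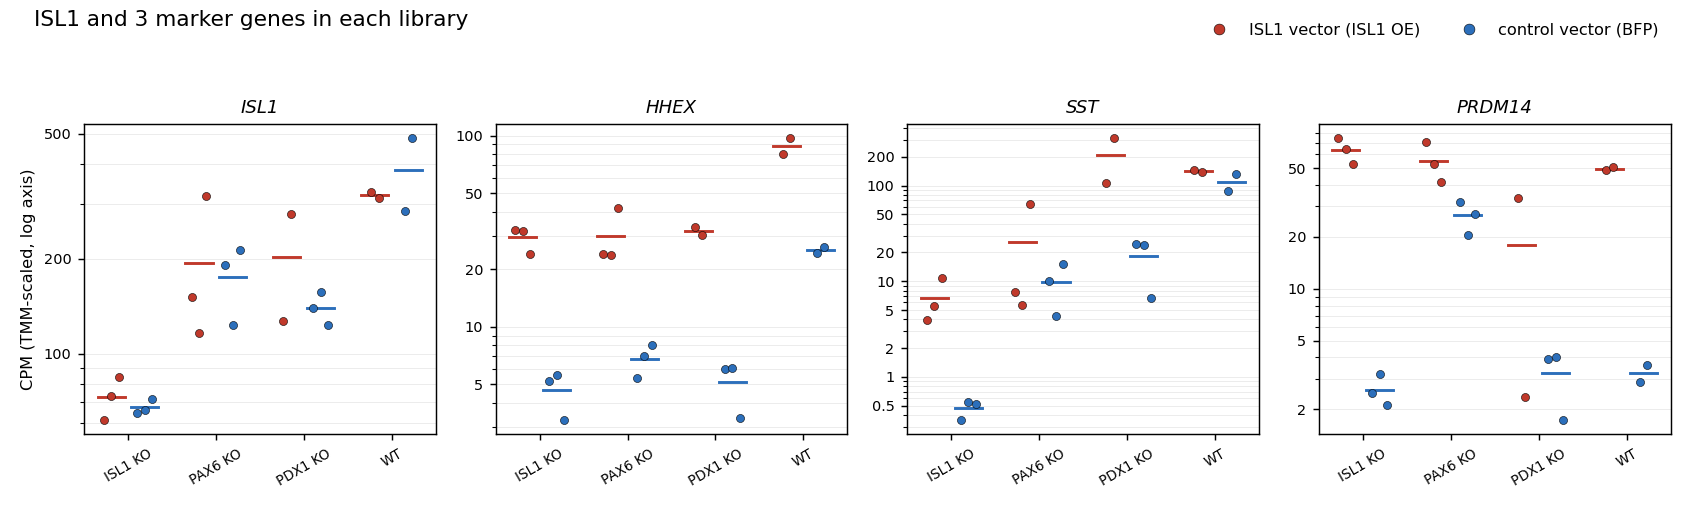
CPM on a log axis in every library for ISL1 and for 3 genes from the marker lists, with red points for ISL1 OE and blue points for BFP. ISL1 overlaps between vectors in each genotype, HHEX is higher with ISL1 OE in all 4, and in PDX1 KO 1 of the ISL1 OE libraries has PRDM14 at 2.35 CPM, within the BFP range.

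The knockouts were then set against WT under the same vector, which asks whether the genes also differ with loss of ISL1, PAX6 or PDX1. The BFP libraries here are those of the vector comparisons, and a low BFP value raises the vector fold change and lowers the knockout one, so the comparisons are not independent of how the genes were chosen. Under BFP, 4 of the 10 fell in ISL1 KO, where 6.53% of all genes were called in either direction and 4.48% fell. LRRC36 fell by 2.74 ± 0.54 (edgeR adjusted p = 0.00571), with 0.113, 0.128 and 0.215 CPM in ISL1 KO BFP, against 1.21 and 0.852 CPM in WT BFP. RIPPLY3 fell by 2.50 ± 0.42 (adjusted p = 0.00164), NOX4 by 1.86 ± 0.33 (adjusted p = 0.00237) and NKAIN3 by 1.21 ± 0.24 (adjusted p = 0.00612). For each of the 4, all 3 ISL1 KO libraries lay below both WT libraries. The share of all genes that separate in this way was not counted, so nothing is read from it. RARRES2 had 29, 23 and 20.2 CPM in ISL1 KO BFP, against 13.8 and 10.8 CPM in WT BFP, a difference of 0.96 ± 0.37 that did not pass (adjusted p = 0.139). NKAIN3 lost its call without WT BFP replicate 3 and LRRC36 without WT BFP replicate 1.

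In PAX6 KO BFP, 1 gene rose and 1 fell, where 2.41% of all genes rose and 4.25% fell, 6.65% in all. VSIG1 rose by 2.44 ± 0.55 (edgeR adjusted p = 0.0139), with 6.51, 6.95 and 8.09 CPM in PAX6 KO BFP, against 1.41 and 1.24 CPM in WT BFP. NKAIN3 fell by 0.98 ± 0.24 (adjusted p = 0.0227), with 4.30, 5.09 and 2.39 CPM in PAX6 KO BFP, against 7.05 and 8.52 CPM in WT BFP. The groups do not overlap for either gene, which was not set against the share over all genes here either. No call was left without WT BFP replicate 1 or without WT BFP replicate 3, and 1 was left without PAX6 KO BFP replicate 1 or replicate 3.

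In PDX1 KO BFP, 3 genes fell, where 11.4% of all genes were called and 6.84% fell. LYPD6B fell by 1.83 ± 0.33 (edgeR adjusted p = 0.00207), with 2.73, 2.0 and 1.54 CPM in PDX1 KO BFP, against 8.62 and 6.21 CPM in WT BFP. RASSF9 fell by 1.58 ± 0.27 (adjusted p = 0.00158), with 0.954, 0.881 and 1.28 CPM in PDX1 KO BFP, against 2.56 and 3.65 CPM in WT BFP. NOX4 fell by 1.59 ± 0.32 (adjusted p = 0.00457), and lost its call without WT BFP replicate 3 (adjusted p = 0.0523). NOX4 fell in both ISL1 KO and PDX1 KO. Differences between knockouts were not tested. The median log2 fold change of the 10 was -0.78 for ISL1 KO, 0.02 for the PAX6 knockout and -0.78 for PDX1 KO, beside 0.03, 0.00 and 0.02 over all genes.

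**Figure D4:**
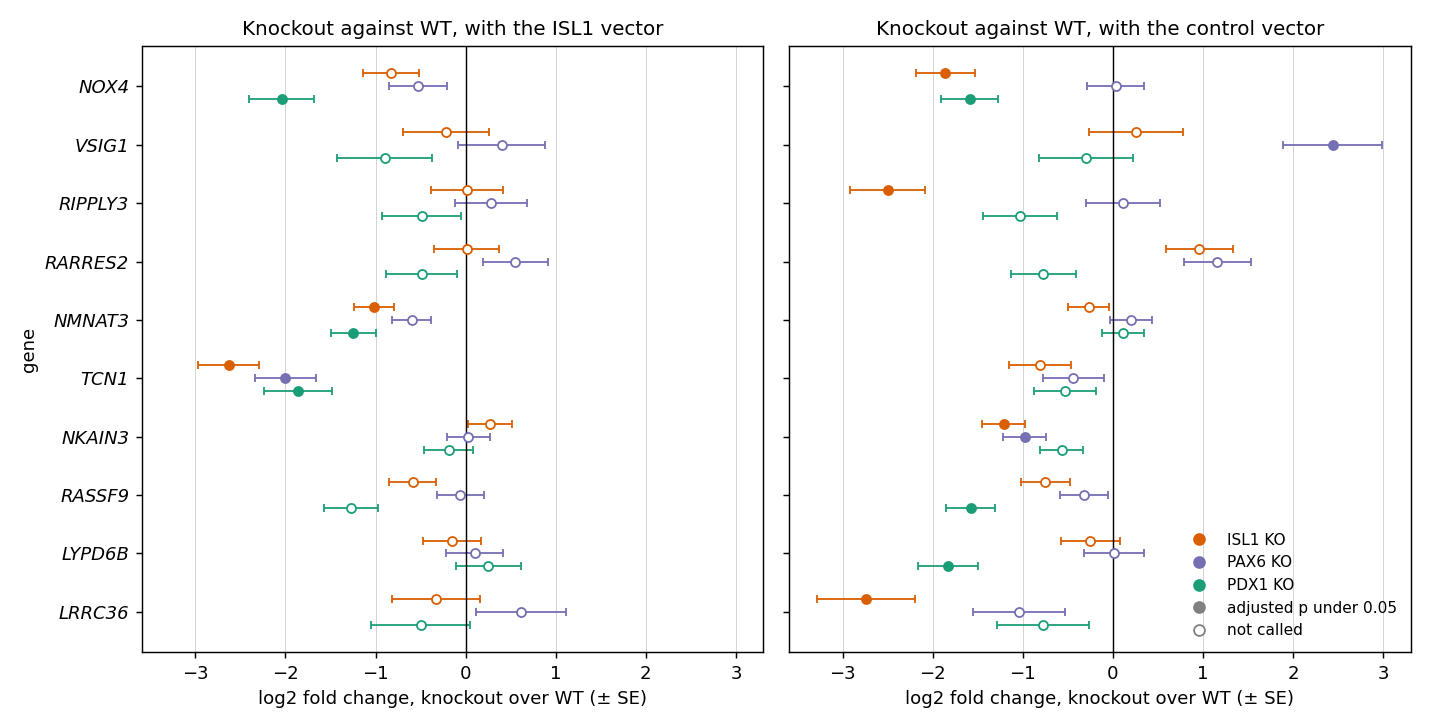
Fitted log2 fold change of each gene, knockout over WT, with its SE, among ISL1 OE libraries (left) and among BFP libraries (right); filled points passed an adjusted p under 0.05. TCN1 lies below 0 in all 3 knockouts with the ISL1 vector, at -2.63, -2.0 and -1.86 in ISL1 KO, PAX6 KO and PDX1 KO, while RIPPLY3 and LRRC36 are low in ISL1 KO with the control vector, at -2.50 and -2.74.

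Under the ISL1 vector, TCN1 was lower in all 3 knockouts than in WT. Its 23.2, 18.8 and 19.9 CPM in ISL1 KO ISL1 OE stood against 112.5 and 143.9 CPM in WT ISL1 OE. It fell by 2.63 ± 0.34 in ISL1 KO (edgeR adjusted p = 0.000415), where 2.93% of all genes fell. It fell by 2.0 ± 0.34 in PAX6 KO (adjusted p = 0.00263, background 2.88%; with these 2 groups alone in the fit, it was at -1.95 and was not called, adjusted p = 0.123) and by 1.86 ± 0.38 in PDX1 KO (adjusted p = 0.0352, background 0.325%). NMNAT3 fell by 1.02 ± 0.22 in ISL1 KO (adjusted p = 0.0159) and by 1.25 ± 0.25 in PDX1 KO (adjusted p = 0.0313), and NOX4 fell by 2.04 ± 0.36 in PDX1 KO (adjusted p = 0.0167). The PDX1 KO calls rest on few libraries: none was left with these 2 groups alone in the fit (adjusted p = 0.913 for each of the 3), none was left without WT ISL1 OE replicate 1 or without WT ISL1 OE replicate 2, and 5 genes were called without PDX1 KO ISL1 OE replicate 2. The NMNAT3 call in ISL1 KO was left in 1 of 5 fits that leave out a library. The other 7 genes were called in none of the 3 comparisons, RIPPLY3 for example with log2 fold changes of 0.02 ± 0.40 for ISL1 KO, 0.28 ± 0.40 for the PAX6 knockout (-0.46 without PAX6 KO ISL1 OE replicate 3) and -0.49 ± 0.44 for PDX1 KO.

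The level reached in ISL1 KO with the ISL1 vector was also set against WT with the control vector. All 10 fitted differences were above 0, and 6 were called higher, where 2.78% of all genes were. VSIG1 was higher by 4.21 ± 0.59 (edgeR adjusted p = 0.000591), RARRES2 by 2.76 ± 0.40 (adjusted p = 0.000735) and NOX4 by 1.89 ± 0.34 (adjusted p = 0.00339). RIPPLY3 was higher by 1.72 ± 0.43 (adjusted p = 0.0204), LYPD6B by 1.29 ± 0.34 (adjusted p = 0.0266) and NMNAT3 by 1.04 ± 0.23 (adjusted p = 0.0121). TCN1 did not differ detectably, at 0.18 ± 0.34 (adjusted p = 0.808), with 23.2, 18.8 and 19.9 CPM in ISL1 KO ISL1 OE, against 20.5 and 15.8 CPM in WT BFP. LRRC36 was at 0.49 ± 0.51 (adjusted p = 0.626), RASSF9 at 0.70 ± 0.27 (adjusted p = 0.122) and NKAIN3 at 0.79 ± 0.25 (adjusted p = 0.0622). Without WT BFP replicate 1, 2 genes were called, and without WT BFP replicate 3, 3 were. Over the 5 fits that leave out 1 library, RARRES2 and VSIG1 were called in 5, NOX4 in 4, NMNAT3 in 3, RIPPLY3 in 1 and LYPD6B in 0 (highest adjusted p of 0.182 for RIPPLY3 and 0.259 for LYPD6B).

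Families of the 10 genes were examined as lists of 5 to 16 tested genes. With 0.243%, 0.203% and 0.0361% of all genes called higher in ISL1 KO, PAX6 KO and WT, a list of that size without a call says nothing particular about the list. Of 11 NADPH oxidases and partners tested, none was called in ISL1 KO, PAX6 KO or WT with the vector. CYBA, the partner subunit of NOX4, had a mean of 120.6 CPM in ISL1 KO ISL1 OE and 113.6 CPM in ISL1 KO BFP (log2 fold change 0.09 ± 0.33, edgeR adjusted p = 1.0). It was at 0.74 ± 0.33 in PAX6 KO (adjusted p = 0.437) and -0.08 ± 0.40 in WT. In PDX1 KO it was called (1.80 ± 0.36, adjusted p = 0.00478), with 434.5 CPM in ISL1 OE replicate 4 and 113.2 CPM in its partner. Without replicate 4 the value was 0.56, on 1 ISL1 OE library. Among 15 genes of NAD synthesis and 14 of vitamin B12 binding, uptake and use, none was called in ISL1 KO, PAX6 KO or WT. GIF, the gastric intrinsic factor that carries vitamin B12, had means of 52.3 ± 12.4 (SD, n = 2) CPM in WT ISL1 OE and 12.5 ± 0.433 (SD, n = 2) CPM in WT BFP and did not pass there (2.07 ± 0.37, adjusted p = 0.0668). It passed in PDX1 KO (2.35 ± 0.32, adjusted p = 0.000366), beside 1.17 ± 0.29 in ISL1 KO (adjusted p = 0.110) and 1.36 ± 0.29 in PAX6 KO (adjusted p = 0.0535). None of 5 genes for chemerin receptors and other retinoid-responsive RARRES genes was called in those 3 genotypes, nor any of 9 RASSF genes or of 14 Ripply and T-box genes.

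Outside PDX1 KO, 5 relatives passed, a count over all the lists and not a share of them. NKAIN2 rose in ISL1 KO by 4.92 ± 0.68 (edgeR adjusted p = 0.00314), at a mean of 0.695 CPM with ISL1 OE and 0.0215 CPM with BFP. VSIG2, of the same family as VSIG1, rose in ISL1 KO by 2.59 ± 0.44 (adjusted p = 0.0105) and in PDX1 KO by 3.54 ± 0.50 (adjusted p = 0.000432), and ESAM, an endothelial adhesion molecule of that list, fell in ISL1 KO by 1.51 ± 0.23 (adjusted p = 0.00568) and rose in PDX1 KO by 1.77 ± 0.25 (adjusted p = 0.000397). LYPD6, the nearest relative of LYPD6B, rose in ISL1 KO by 1.71 ± 0.35 (adjusted p = 0.0333) and in PDX1 KO by 2.21 ± 0.38 (adjusted p = 0.00197). CHRNA4, a nicotinic receptor subunit, fell in PAX6 KO by 1.30 ± 0.27 (adjusted p = 0.0428) and in PDX1 KO by 1.92 ± 0.32 (adjusted p = 0.00166); the PAX6 KO call was lost without ISL1 OE replicate 3 (adjusted p = 0.103). In PDX1 KO 24 of the relatives tested rose and 8 fell, which are counts over all the lists and not shares. By list, those that rose ranged from 2 of 14 Ripply and T-box genes to 2 of 5 chemerin receptor and RARRES genes. Those that fell ranged from 0 of 15 genes of NAD synthesis to 3 of 11 genes of the VSIG1 list. Of all genes, 9.09% rose and 5.34% fell there. Without replicate 4, which leaves 1 ISL1 OE library, fewer relatives and also fewer of all genes were called in either direction. Nothing about the relatives is read from that drop.

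Outside the list, the genes whose log2 CPM over the 21 libraries most resembled the mean of the 10 were VSIG2 (Pearson correlation 0.915), NRG4 (0.914), ST3GAL6 (0.907), HHEX (0.906), FRZB (0.895), SERPING1 (0.894), ENSG00000286447 (0.887) and GIF (0.883); genes on the Y chromosome were not searched. FRZB, a secreted Wnt antagonist, averaged 176 ± 18.7 (SD, n = 3) CPM in ISL1 KO ISL1 OE and 22.6 ± 3.86 (SD, n = 3) CPM in ISL1 KO BFP. NRG4, a growth factor of the neuregulin family, averaged 1.96 ± 0.561 and 0.779 ± 0.142 CPM in the same groups. Taken one by one, NOX4 and RASSF9 were nearest to each other (0.931), RIPPLY3 and NMNAT3 were nearest to NOX4 (0.923 and 0.918) and LRRC36 to RIPPLY3 (0.913). RARRES2 was nearest to BMPR1B-DT (0.979), LYPD6B to SERPING1 (0.967), VSIG1 to PRDM14 (0.941), TCN1 to AC099670.3 (0.889) and NKAIN3 to DRD5 (0.859).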

How the data were processed

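RNA was measured in 21 libraries of whole cultures by sequencing of amplified cDNA from a kit that does not mark strand (SMART-Seq v4, per the labels' protocols). The authors deposited estimated counts and TPM values per gene, and estimated counts per transcript, each in 4 sequencing lanes per library; alignment used STAR and GRCh38, per the submitters' processing notes, and the sources used here do not name the program that estimated the counts. The estimated counts were summed over lanes, between which correlations were 0.9895 or higher, and rounded to whole numbers. TPM was averaged over lanes. A further 12 columns, of 3 libraries, could not be tied to the labels and were not used. The 8 groups come from the labels and the replicates from the column names; nothing says that replicates were separate differentiations, so p-values measure the spread between these libraries.

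Genes with low counts were removed with filterByExpr (minimum count 10), which left 22184 of 38592 genes. All 8 groups entered 1 edgeR 4.0.16 quasi-likelihood fit in R 4.3.3 (limma 3.58.1) with TMM factors of 0.707 to 1.15, 13 residual degrees of freedom and a common dispersion of 0.114. P-values were adjusted by Benjamini-Hochberg over all genes tested, and a call is an adjusted p under 0.05. The fit was also run on counts simulated from its own model, with known changes in WT ISL1 OE. These held no outlying library and no pairing, so they cannot show how the fit handles either. CPM values use TMM factors; correlations use log2 CPM with a prior count of 2. Alternatives were library size alone, DESeq2 1.42.0, no filter, the replicate number as a block, only the groups compared, leaving out each library, and leaving out both libraries that stand apart. Counts of calls in the lists without each of those libraries were added after seeing the data. Amplified reads carry no molecular identifiers, so depth covers counting error only.

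Same-numbered ISL1 OE and BFP libraries, by their column names, had deviations from their group means that correlated at 0.176, 0.382 and 0.346 in PAX6 KO, all above 0.1, so these numbers were taken to pair. In ISL1 KO they were 0.17, 0.0992 and 0.307, which does not meet that rule. The main fit has no term for the pairing in PAX6 KO, which enters only through the alternative with a block. The PAX6 KO fold changes, SEs and p-values in the text are therefore unpaired, those of markers and relatives included. With the block, only counts of calls among the chosen genes are given.

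The 10 genes, the lists of relatives and the cell type markers were chosen with earlier results of these data known. The text names the 10 genes, ISL1, relatives called in at least 2 vector comparisons or with the smallest adjusted p of their list, the 8 genes outside the list most correlated with its mean profile, the nearest gene to each, and markers that moved with them. GENCODE 29 held 34390 of the gene IDs. Promoter windows came from RefSeq, GRCh38.p14.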

Additional observations from a re-analysis of the deposited data

Results flagged for a closer look

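NKAIN3 is listed because its ISL1 KO libraries lay on opposite sides of WT under the 2 vectors. With the ISL1 vector it had 13.8, 13.3 and 13.2 CPM in ISL1 KO, against 11.1 and 11.2 CPM in WT (log2 fold change 0.27). With BFP it had 3.06, 3.74 and 3.29 CPM in ISL1 KO, against 7.05 and 8.52 CPM in WT (log2 fold change -1.21). The first of these was not called (0.27 ± 0.24, edgeR adjusted p = 0.653) and the second was (-1.21 ± 0.24, adjusted p = 0.00612). The share of all genes that separate in this way was not counted, and the difference between the vectors was not tested.

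CHRNA4 is listed because the ISL1 OE libraries lay above the BFP libraries in WT, with 3.52 and 2.50 CPM, against 1.91 and 1.37 CPM (log2 fold change 0.87), and below them in the knockouts. The log2 fold changes were -0.88 for ISL1 KO, -1.30 for the PAX6 knockout and -1.92 for PDX1 KO. ESAM is listed because its ISL1 OE libraries lay below BFP in ISL1 KO and PAX6 KO, with log2 fold changes of -1.51 and -0.88, and above BFP in PDX1 KO, with 15.4 and 10.7 CPM, against 3.67, 4.80 and 3.0 CPM (log2 fold change 1.77). GCG is listed because its ISL1 OE libraries lay below BFP in WT, with 31162 and 28784 CPM, against 33913 and 48218 CPM (log2 fold change -0.45), and above BFP in ISL1 KO, with 2058, 2527 and 5063 CPM, against 86.5, 72.4 and 82.4 CPM (log2 fold change 5.32). Of the comparisons above, CHRNA4 was not called in WT or ISL1 KO (edgeR adjusted p = 0.981 and 0.211). Nor was ESAM in PAX6 KO (edgeR adjusted p = 0.130), or GCG in WT (-0.45 ± 0.99). The share of all genes that separate in opposite directions was not counted. None of these differences between genotypes was tested.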

How the results depend on the processing

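No fold change of the 10 genes between vectors changed sign under the alternatives run. Between genotypes 14 did, all of 0.61 or less in size and none called under either setting. Of 1210 single-gene comparisons with an alternative, 1005 kept their direction and their side of the threshold, 134 lost a call, 44 gained one and 27 changed sign. In PAX6 KO ISL1 OE against WT ISL1 OE, with both libraries that stand apart left out, RIPPLY3 was at -0.45 in place of 0.28, RARRES2 at -0.17 in place of 0.55, LYPD6B at -0.27 in place of 0.10 and LRRC36 at -0.24 in place of 0.61; RASSF9 was at 0.06 in place of -0.06 with library size alone. LYPD6B in PAX6 KO BFP was at -0.00 in place of 0.01 with DESeq2. Among the 10 genes, with both libraries that stand apart left out, 7 were called in ISL1 KO BFP against WT BFP in place of 4, 4 in PAX6 KO BFP in place of 2, 5 in PDX1 KO BFP in place of 3, 2 in PAX6 KO ISL1 OE against WT ISL1 OE in place of 1, and 8 in WT ISL1 OE against WT BFP in place of 5. With only the groups compared in the fit, 6 were called in PDX1 KO BFP and 4 in ISL1 KO ISL1 OE against WT ISL1 OE, and 0 in PAX6 KO ISL1 OE and PDX1 KO ISL1 OE against WT ISL1 OE and in the vector comparisons of PAX6 KO and PDX1 KO. Without the filter 1 was called in PAX6 KO BFP, and with library size alone 1 in ISL1 KO ISL1 OE against WT ISL1 OE. The shares of all genes called are not given beside these counts of the 10 or those later in this section. Nothing about the 10 is therefore read from the counts. The causes were not tested.

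With the replicate block, 5 were called in the PAX6 KO vector comparison in place of 9; the block moved no other count by more than 1.5 times. In ISL1 KO it gave 8 in place of 9. Each library there correlated best with its own number.

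Leaving out 1 library gave 0 to 2 calls in PAX6 KO BFP, 1 to 2 in ISL1 KO ISL1 OE and 0 to 5 in PDX1 KO ISL1 OE against WT ISL1 OE, 0 to 4 in WT, 5 to 8 in ISL1 KO and 2 to 9 in PAX6 KO between vectors, with 2 to 5 for ISL1 KO ISL1 OE set against WT BFP. Signs turned, over these fits, in PAX6 KO ISL1 OE against WT ISL1 OE for RIPPLY3 (-0.46 to 0.63), RARRES2 (-0.19 to 0.91), RASSF9 (-0.16 to 0.18), LYPD6B (-0.28 to 0.41) and LRRC36 (-0.25 to 1.02), and in the ISL1 KO counterpart for VSIG1 (-0.47 to 0.08), RIPPLY3 (-0.13 to 0.20), RARRES2 (-0.14 to 0.18) and LYPD6B (-0.38 to 0.12). They turned in PDX1 KO ISL1 OE for RIPPLY3 (-1.07 to 0.00), in ISL1 KO BFP for LYPD6B (-0.47 to 0.01), and in PAX6 KO BFP for NOX4 (-0.07 to 0.20), RIPPLY3 (-0.03 to 0.32) and LYPD6B (-0.29 to 0.30). Where an arm keeps 1 library, it is assumed to vary like the others. Library size alone shifted the median of all genes to 0.21 in ISL1 KO BFP, 0.24 in PAX6 KO BFP and 0.22 in ISL1 KO ISL1 OE against WT BFP; higher and lower calls over all genes were then 504 and 664, 698 and 558, and 844 and 685, in place of 455 and 994, 534 and 942, and 617 and 1176.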

Other observations

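Of all genes, 17 were called higher with the ISL1 vector in at least 3 of 4 genotypes (0.0766%), and 8 of them are among the 10 described above. Of the other 9, 7 are described here, and 2 on the Y chromosome are not. The 7 were taken up after their values were seen. HHEX and FRZB, both delta cell markers in the lists used, were called in the 3 knockouts. Without PAX6 KO ISL1 OE replicate 3, FRZB, KCNN4, BMPR1B-DT and SOX21-AS1 were no longer called in PAX6 KO (adjusted p = 0.120, 0.0771, 0.132 and 0.103). CNMD, a secreted cartilage glycoprotein that restrains vessel growth, had log2 fold changes of 2.15 in ISL1 KO, 5.12 in PAX6 KO, 2.54 in PDX1 KO and 5.31 in WT. IGFBP6, a secreted binding protein of insulin-like growth factors, had 1.48, 1.59, 2.10 and 1.35 in the same order of genotypes. KCNN4, a calcium-activated potassium channel, had 0.98, 1.39, 1.45 and 2.25. The long noncoding RNAs BMPR1B-DT and SOX21-AS1 had 2.21, 2.21, 3.49 and 2.69, and 2.39, 1.98, 1.85 and 1.39.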
